A study of Homo sapiens with 2 samples.

Results

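Genes that sense foreign nucleic acid or pass its signal on, 10 in all, were followed in MOLT4 and K562: the DNA sensors IFI16 and AIM2, the RNA sensors IFIH1 and DDX58, their adaptor MAVS, the endosomal receptors TLR3, TLR7 and TLR9, the kinase TBK1 and the transcription factor IRF3. They were taken by gene name, and all 10 of 10 were found among the 60586 genes of the authors' table. MOLT4 is an established line from a human T cell leukaemia, labelled as T lymphoblast. K562 is an established line from a chronic myeloid leukaemia, labelled as erythrocyte. Both lines were kept in DMEM with serum and antibiotics, and the labels name no stimulus, infection or transfection, so the levels are those of cells in plain culture. The table gives 1 value per gene and line in FPKM, which is scaled to transcript length and to the mapped fragments and so allows levels of different genes to be compared. The series lists 2 samples, 1 per line, while its design text states 3 replicates. No spread between replicates could be computed, and each p and q below is the authors' own.

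Cells detect viral or misplaced nucleic acid with receptors in the cytosol, the nucleus and the endosome. DDX58 encodes RIG-I, which binds RNA ends that carry a triphosphate, and IFIH1 encodes MDA5, which binds long double-stranded RNA. Both signal through MAVS on mitochondria. IFI16 and AIM2 belong to the PYHIN family of DNA binders, and AIM2 builds an inflammasome. TLR3 reads double-stranded RNA, TLR7 single-stranded RNA, and TLR9 DNA with unmethylated CpG sites. The kinase TBK1 phosphorylates IRF3, which then enters the nucleus and switches on the interferon beta gene. Several of the sensors are themselves induced by interferon through sites that IRF factors bind.

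The promoters of 6 of the genes are shown because the sensors and the kinase moved apart between the lines and because IRF factors are known to act on sensor genes. RefSeq windows (GRCh38.p14, from 250 bases before to 50 after the gene's start) were found for 8 of the 10 genes, DDX58 under its current symbol RIGI. IFI16 has more than 1 window there, and the one printed is the last along the chromosome. Capitals mark matches, on either strand, to AANNGAAA, letters that IRF factors are known to bind, in which N is any base.
IFI16, chr1:159009657-159009956, plus strand: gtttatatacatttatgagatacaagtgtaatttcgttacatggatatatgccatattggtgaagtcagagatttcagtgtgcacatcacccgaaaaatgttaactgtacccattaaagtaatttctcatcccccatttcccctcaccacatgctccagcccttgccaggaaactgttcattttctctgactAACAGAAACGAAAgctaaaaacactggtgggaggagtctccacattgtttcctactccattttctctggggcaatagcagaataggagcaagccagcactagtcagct
AIM2, chr1:159076717-159077016, minus strand: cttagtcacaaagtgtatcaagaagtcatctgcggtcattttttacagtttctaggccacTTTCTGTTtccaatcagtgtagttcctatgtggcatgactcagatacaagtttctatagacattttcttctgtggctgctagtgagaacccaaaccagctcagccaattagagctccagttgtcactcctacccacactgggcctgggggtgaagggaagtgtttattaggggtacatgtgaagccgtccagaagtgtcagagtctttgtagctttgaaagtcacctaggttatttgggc
IFIH1, chr2:162318635-162318934, minus strand: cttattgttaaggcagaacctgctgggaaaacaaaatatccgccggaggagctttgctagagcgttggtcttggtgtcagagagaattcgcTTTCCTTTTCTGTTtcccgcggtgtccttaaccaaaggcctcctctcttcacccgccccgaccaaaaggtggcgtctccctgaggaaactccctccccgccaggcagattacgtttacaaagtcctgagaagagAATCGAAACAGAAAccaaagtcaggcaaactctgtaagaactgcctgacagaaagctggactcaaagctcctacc
DDX58, chr9:32526147-32526446, minus strand: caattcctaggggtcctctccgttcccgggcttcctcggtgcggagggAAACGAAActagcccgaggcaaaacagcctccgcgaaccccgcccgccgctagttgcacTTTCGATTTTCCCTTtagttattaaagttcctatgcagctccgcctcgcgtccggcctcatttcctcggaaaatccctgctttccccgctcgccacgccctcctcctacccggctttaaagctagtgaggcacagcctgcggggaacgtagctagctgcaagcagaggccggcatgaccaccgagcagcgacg
TLR3, chr4:186068906-186069205, plus strand: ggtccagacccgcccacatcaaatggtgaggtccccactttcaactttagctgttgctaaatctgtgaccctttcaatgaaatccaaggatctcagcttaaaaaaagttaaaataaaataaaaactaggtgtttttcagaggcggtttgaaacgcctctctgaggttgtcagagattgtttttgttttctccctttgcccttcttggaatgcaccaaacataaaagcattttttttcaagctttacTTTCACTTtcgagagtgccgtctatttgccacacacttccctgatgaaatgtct
TBK1, chr12:64451870-64452169, plus strand: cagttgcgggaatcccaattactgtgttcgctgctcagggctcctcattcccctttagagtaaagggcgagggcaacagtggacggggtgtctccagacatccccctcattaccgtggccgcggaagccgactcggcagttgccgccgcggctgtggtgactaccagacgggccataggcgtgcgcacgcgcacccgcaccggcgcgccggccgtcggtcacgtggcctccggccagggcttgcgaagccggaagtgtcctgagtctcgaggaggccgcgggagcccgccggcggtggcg
These letters matched in 5 of the 8 genes, IFI16, AIM2, IFIH1, DDX58 and TLR3. Over all 35116 RefSeq windows of the same length 22.8% hold a match. That share is by window, while the count is by gene, and the 8 genes have 9 windows. The windows of TLR9, of TBK1 and of MAVS, which was called higher in MOLT4, hold no match. The TBK1 window is 68.3% G and C with 35 CG pairs and the printed IFI16 window is 41.7% G and C with 3, against medians of 58.7% and 14 CG pairs over all windows. A match describes the letters only, and a link to the levels was not tested. The windows of sensors above 1 FPKM in MOLT4 hold a match, and so does that of AIM2, whose listed levels are near 0 in both lines.

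The lines were first set beside marker genes of their labelled types. These markers were chosen after their values were seen, so their counts describe the lines and are no independent check. All 9 T lymphoblast markers reached 1 FPKM in MOLT4 and 2 of 9 did in K562. Of 9 erythroid markers 7 have a usable value, and none of these reached 1 FPKM in MOLT4 while all 7 did in K562. The other two, HBG1 and HBG2, have no usable value for either line because the authors' software stopped at too many fragments. None of the 3 plasmacytoid dendritic cell markers, a cell type known for TLR7 and TLR9, reached 1 FPKM in MOLT4 or K562. The sum of these 3 markers was 0.0158 FPKM in MOLT4 against 0.169 FPKM in K562. Of 4 monocyte and macrophage markers, none reached 1 FPKM in MOLT4 and 1, CD68, reached it in K562, at 53.7 FPKM. Of 4 natural killer cell markers 1 reached 1 FPKM in MOLT4 and none in K562, and of 4 B cell markers 1 did in each line. Of 4 conventional dendritic cell markers 2 reached it in MOLT4, CD1C and BATF3, and 1, BATF3, in K562.

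MOLT4 held most of the sensor RNA and K562 most of the TBK1 RNA. Of the 10 genes, 7 reached 1 FPKM in MOLT4 and 4 did in K562, while 53.8% and 54.6% of 19905 protein-coding genes reached it in MOLT4 and K562. Of the 10 genes, 8 were tested in the authors' deposited table, and 5 of these had a q of at most 0.05. That is 62.5% of the 8, against 42.2% of all 18870 tested genes. IFI16, IFIH1, DDX58 and MAVS were called higher in MOLT4, 4 of 8 against 18.8% of all tested genes, and TBK1 was called higher in K562, 1 of 8 against 23.4%. TLR3, TLR9 and IRF3 were tested and not called. AIM2 and TLR7 were not tested by the authors. The median of log2((MOLT4 + 1)/(K562 + 1)) was 1.62 over the 8 tested genes and -0.06 over all tested genes. Among the 14103 tested genes at a mean of 1 FPKM or more, 46.0% were called, 20.8% toward MOLT4 and 25.3% toward K562. Of the 7 members that reach this mean, 4 were called toward MOLT4 and 1 toward K562.

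**Figure D1:**
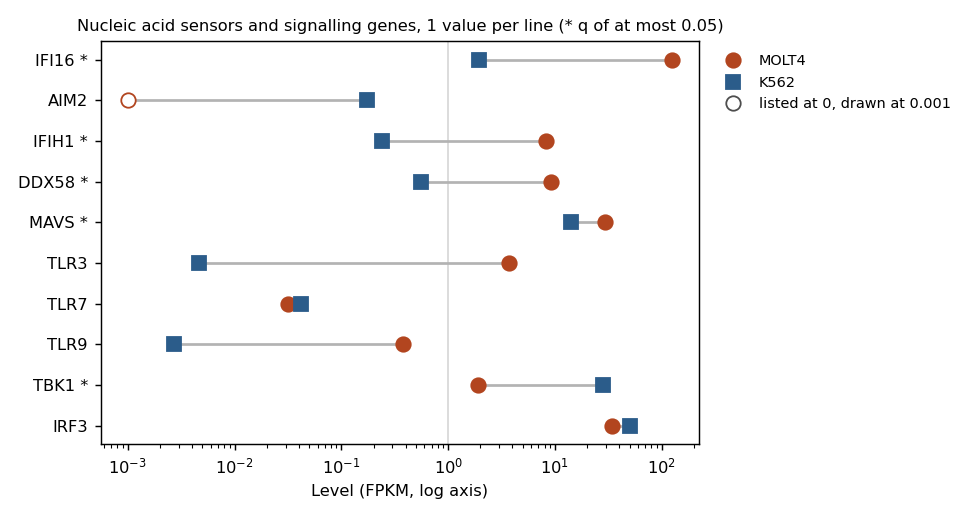
Levels of the 10 genes in MOLT4 (circles) and K562 (squares) in FPKM on a log axis, with a star for a q of at most 0.05 in the authors' deposited table and an open symbol for a value listed at 0. IFI16 lies at 125 FPKM in MOLT4 against 1.95 FPKM in K562, TBK1 lies the other way round, and MAVS and IRF3 are at 14 FPKM or more in either line.

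IFI16 was the most abundant of the 10 genes in MOLT4 and showed the largest difference in FPKM. It is a DNA binder of the nucleus and cytosol (ENSG00000163565.18, chromosome 1, 158999968 to 159055155, GRCh38). Its level was 125 FPKM in MOLT4 against 1.95 FPKM in K562, a 63.9-fold difference (q = 0.000203 in the authors' deposited table). It stood above 96.6% of protein-coding genes in MOLT4 and above 49.0% in K562. IFI16 alone made up 58.9% of the summed FPKM of the 10 genes in MOLT4 and 2.04% in K562. Among 18869 other tested genes, those nearest to IFI16 in log2(FPKM + 1) over the 2 lines were PALM2-AKAP2, LAT and BEX1. PALM2-AKAP2 was at 114 FPKM in MOLT4 against 1.40 FPKM in K562, a distance of 0.33 on that scale. LAT, an adaptor of the T cell receptor, was at 163 and 1.25 FPKM in MOLT4 and K562, and BEX1 at 182 and 1.36 FPKM in MOLT4 and K562.

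AIM2, the DNA sensor of the inflammasome and a neighbour of IFI16 on chromosome 1 (ENSG00000163568.15, 159062484 to 159147096), had no such level. It was listed at 0 in MOLT4 and at 0.175 FPKM in K562, and the authors ran no test on it. MNDA and PYHIN1, the other human genes of the PYHIN family on the pathway list, were listed at 0 in MOLT4 and at 0.126 and 0 FPKM in K562. IFI16 was thus the 1 gene of these 4 above 1 FPKM in MOLT4 or K562.

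The cytosolic DNA branch beyond the PYHIN genes was split between the lines. CGAS, the enzyme that makes the second messenger for cytosolic DNA, was at 0.0402 FPKM in MOLT4 against 0.0465 FPKM in K562 and was not tested. Its receptor STING1, listed under the older name TMEM173, was at 4.23 FPKM in MOLT4 against 31.8 FPKM in K562, 7.53-fold higher in K562 (q = 0.000203 in the authors' deposited table). Of the 16 genes on this list, 10 were tested, with a median log2 ratio of 0.23. Of these, 4 were called toward MOLT4 and 3 toward K562, or 70% in either direction, beside 42.2% of all tested genes. TREX1, an exonuclease that removes cytosolic DNA, was at 5.67 FPKM in MOLT4 against 0.641 FPKM in K562 (q = 0.0278 in the authors' deposited table). XRCC5, a Ku subunit of DNA end joining, was at 289.9 FPKM in MOLT4 against 161 FPKM in K562, and its partner XRCC6 at 316 FPKM in MOLT4 against 195 FPKM in K562 (q = 0.000203 and 0.000571 in the authors' deposited table). Both Ku genes differed by less than 2-fold, and 2 genes of the list remain called toward MOLT4 if a 2-fold difference is required. SAMHD1, which breaks down deoxynucleotides, was 37.5-fold higher in K562, at 0.449 FPKM in MOLT4 against 16.8 FPKM in K562. PQBP1, which is known to pass retroviral DNA to cGAS, was at 49.8 FPKM in MOLT4 against 126 FPKM in K562.

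The RNA helicase sensors were above 1 FPKM in MOLT4 and below it in K562. IFIH1 (ENSG00000115267.8, chromosome 2, 162267074 to 162318684) was at 8.23 FPKM in MOLT4 against 0.240 FPKM in K562, a 34.4-fold difference. DDX58 (ENSG00000107201.10, chromosome 9, 32455302 to 32526208) was at 9.16 FPKM in MOLT4 against 0.558 FPKM in K562, a 16.4-fold difference. Each had a q of 0.000203 in the authors' deposited table, the smallest q it lists. Within a line the 2 sensors were close to each other in MOLT4, with 1.11 FPKM of DDX58 per FPKM of IFIH1, and further apart in K562, with a ratio of 2.33. Both genes have matches to the IRF letters in the promoters printed above, 4 in IFIH1 and 3 in DDX58, and a link to the levels was not tested.

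MAVS, their common adaptor, had a smaller ratio between the lines than the sensors that feed it. MAVS (ENSG00000088888.18, chromosome 20, 3846799 to 3876123) was at 29.7 FPKM in MOLT4 against 14.2 FPKM in K562, 2.09-fold higher in MOLT4 (q = 0.000203 in the authors' deposited table). The adaptor stood further above its sensors in K562, with 3.24 FPKM of MAVS per FPKM of DDX58 in MOLT4 and 25.5 in K562. Against IFIH1 it was 3.61 in MOLT4 and 59.4 in K562.

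Across the 16 genes of the RNA helicase list, 15 were tested and 7 were called in the authors' deposited table, all of them higher in MOLT4. At an unadjusted p of at most 0.05 the calls would be 8 toward MOLT4 and 1 toward K562. The called share of this list, 46.7% of its tested genes, is near the 42.2% of all tested genes. Over all tested genes 18.8% were called toward MOLT4 and 23.4% toward K562, while all calls of this list were toward MOLT4. The median log2 ratio of the tested genes was 0.49. DHX58, which encodes the related helicase LGP2, was at 16.1 FPKM in MOLT4 against 0.721 FPKM in K562, a 22.4-fold difference. RNF125, a ubiquitin ligase known to limit RIG-I, was at 2.30 FPKM in MOLT4 against 0.0755 FPKM in K562 (q = 0.0139 in the authors' deposited table). NLRX1, a mitochondrial regulator of this branch, was at 2.48 FPKM in MOLT4 against 0.572 FPKM in K562. The ubiquitin ligase genes TRIM25 and TRAF6 and the mitochondrial import gene TOMM70 were not called. TRIM25 was at 49.9 FPKM in MOLT4 against 51.0 FPKM in K562.

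**Figure D2:**
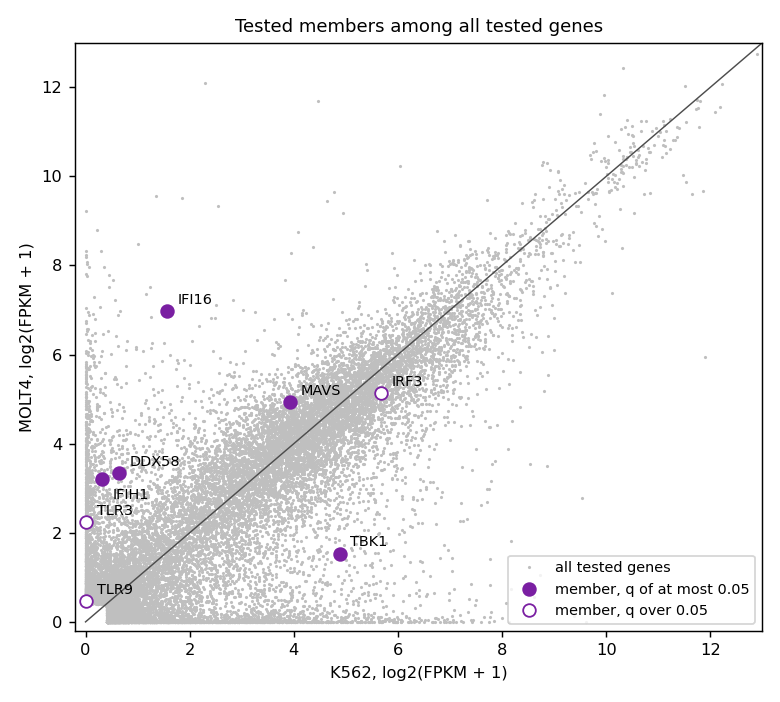
Level of each tested gene in MOLT4 (vertical axis) and in K562 (horizontal axis) as log2(FPKM + 1), with the 8 tested members of the set in purple, filled where q was at most 0.05, and the line of equal levels. IFI16, IFIH1, DDX58 and MAVS lie above the line, TBK1 far below it, and IRF3 close to it.

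The endosomal receptors were low or near 0. TLR3 (ENSG00000164342.12, chromosome 4, 186069152 to 186088069) was at 3.71 FPKM in MOLT4 against 0.00466 FPKM in K562. The ratio of these values is 795, yet the gene was not called in the authors' deposited table (p = 0.240, q = 0.354). TLR9 (ENSG00000239732.3, chromosome 3, locus 52221080 to 52239158) was at 0.378 FPKM in MOLT4 against 0.00274 FPKM in K562 and likewise missed the threshold (q = 0.350 in the authors' deposited table). In GENCODE release 29 TLR9 overlaps AC097637.1 on the same strand, which was at 1.21 FPKM in MOLT4 against 0.0137 FPKM in K562, so reads of the overlap cannot be assigned to TLR9 with certainty. TLR7 (ENSG00000196664.5, chromosome X, 12867072 to 12890361) was at 0.0317 FPKM in MOLT4 against 0.0417 FPKM in K562 and was not tested. TLR8, its neighbour and a receptor of single-stranded RNA, was listed at 0 in MOLT4 and at 0.0154 FPKM in K562. TLR3 was thus the 1 endosomal receptor above 1 FPKM, in MOLT4 alone and without a call.

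TLR3 is one of many genes with a value this close to 0 in one line, and most of them carry no call. Of 240 tested genes at 1 FPKM or more in one line and above 0 but under 0.01 FPKM in the other, 46 were called in the authors' deposited table, or 19.2%. With MOLT4 as the higher line, as for TLR3, 27 of 119 such genes were called. Where the lower line, K562, was at 0.1 to under 1 FPKM, as for IFIH1 and DDX58, 662 of 1101 were called. A missing call beside such a ratio does not show that the lines are alike in TLR3.

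**Figure D3:**
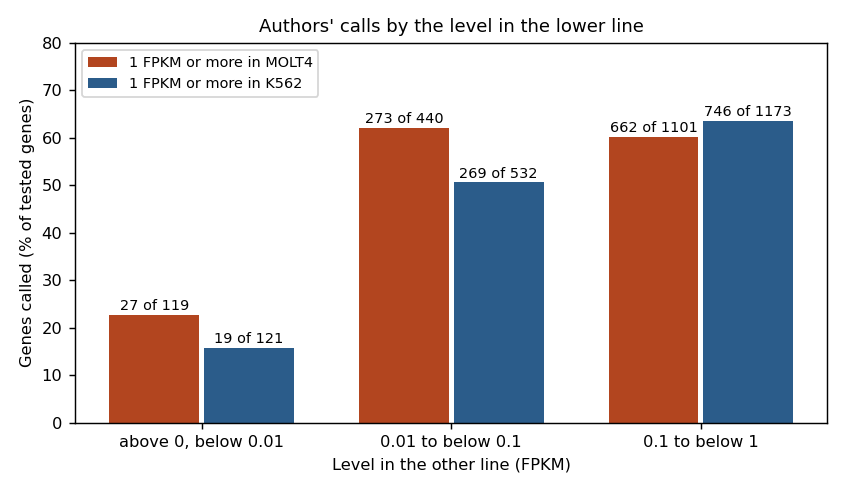
Share of tested genes called by the authors (vertical axis, percent) by the level in the lower line in FPKM (horizontal axis), for genes at 1 FPKM or more in MOLT4 or in K562, with the counts above the bars. The leftmost pair, which holds TLR3, stands at 22.7% and 15.7%, against 50.6% to 63.6% for the other bars.

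The helpers of the endosomal receptors varied in level within and between the lines. Of the 19 genes of this list, receptors included, 8 reached 1 FPKM in both lines and 5 stayed under it in both. Of these 19, 15 were tested, 3 were called toward MOLT4 and 5 toward K562, with a median log2 ratio of -0.20. The called share was 53.3%, beside 42.2% of all tested genes, 18.8% toward MOLT4 and 23.4% toward K562. UNC93B1, which carries these receptors to the endosome, was at 0.741 FPKM in MOLT4 against 2.55 FPKM in K562 (q = 0.000391 in the authors' deposited table). CNPY3, a chaperone of Toll-like receptors, was 3.47-fold higher in MOLT4, at 78.7 FPKM against 22.7 FPKM in K562. MYD88, the adaptor of TLR7 and TLR9, was at 35.7 FPKM in MOLT4 against 20.4 FPKM in K562 and was called. TICAM1, the adaptor of TLR3, was at 4.03 FPKM in MOLT4 against 5.20 FPKM in K562 and missed the threshold (q = 0.302 in the authors' deposited table). Endosomal proteases that are known to process the receptors differed in either direction. LGMN was at 3.52 FPKM in MOLT4 against 0.362 FPKM in K562, CTSS at 0.266 FPKM in MOLT4 against 15.0 FPKM in K562, and CTSB at 20.4 FPKM in MOLT4 against 119 FPKM in K562, each called in the authors' deposited table. IRAK2, a kinase below MYD88, was at 0.0273 FPKM in MOLT4 against 2.39 FPKM in K562 (q = 0.00426 in the authors' deposited table).

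TBK1 ran against the sensors. TBK1 (ENSG00000183735.10, chromosome 12, 64451591 to 64502114) was at 1.89 FPKM in MOLT4 against 28.4 FPKM in K562, 15.0-fold higher in K562 (q = 0.000203 in the authors' deposited table). It ranked 7 of 10 among these genes in MOLT4 and 2 of 10 in K562, and it stood above 49.5% of protein-coding genes in MOLT4 and 81.0% in K562. The genes nearest to TBK1 over the 2 lines were RAI14, TNIK and ARRDC4. RAI14 was at 2.002 FPKM in MOLT4 against 28.1 FPKM in K562, TNIK at 1.83 FPKM in MOLT4 against 29.4 FPKM in K562, and ARRDC4 at 2.01 FPKM in MOLT4 against 27.3 FPKM in K562. The TBK1 promoter printed above holds no match to the IRF letters searched, and 22.8% of all RefSeq windows hold one. The window of MAVS, called higher in MOLT4, holds none either, and a link to the levels was not tested.

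IKBKE, which encodes the closest relative of the TBK1 kinase, differed the other way. It was at 3.92 FPKM in MOLT4 against 1.62 FPKM in K562, 2.41-fold higher in MOLT4 (q = 0.00324 in the authors' deposited table). The ratio of TBK1 to IKBKE was 0.483 in MOLT4 and 17.5 in K562. The sum of the 2 kinase genes was 5.81 FPKM in MOLT4 against 30.1 FPKM in K562, so the higher IKBKE level in MOLT4 was small beside the TBK1 difference.

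The scaffolds that hold TBK1 were, like TBK1, listed higher in K562. TANK was at 21.2 FPKM in MOLT4 against 39.7 FPKM in K562 (q = 0.00526), and TBKBP1 at 0.932 FPKM in MOLT4 against 4.51 FPKM in K562 (q = 0.00125), in the authors' deposited table. AZI2, the third such scaffold, was at 49.4 FPKM in MOLT4 against 62.7 FPKM in K562 and missed the threshold (q = 0.370 in the authors' deposited table). OPTN, an autophagy receptor that TBK1 phosphorylates, was called higher in K562, at 7.11 FPKM in MOLT4 against 13.3 FPKM in K562. Over the whole list of 13 kinases and scaffolds, all tested, 4 were called toward MOLT4 and 6 toward K562, with a median log2 ratio of -0.61. That is 76.9% in either direction, beside 42.2% of all tested genes. With a 2-fold difference required, 1 was called toward MOLT4 and 2 toward K562, and at a q of at most 0.01, 2 were called toward MOLT4. The IKK genes IKBKB and CHUK, which lead to NF-kB, were 1.54-fold and 1.53-fold higher in MOLT4 and called in the authors' deposited table.

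IRF3, the factor that TBK1 activates, was high in MOLT4 and in K562. IRF3 (ENSG00000126456.16, chromosome 19, locus 49659569 to 49673916) was at 33.9 FPKM in MOLT4 against 49.9 FPKM in K562, a ratio of 1.47 that missed the threshold (q = 0.217 in the authors' deposited table). It ranked 2 of 10 in MOLT4 and 1 of 10 in K562. With TBK1 lower and IRF3 close, the ratio of TBK1 to IRF3 was 0.0558 in MOLT4 and 0.570 in K562. IRF3 overlaps BCL2L12, which lies on the opposite strand and was at 25.2 FPKM in MOLT4 against 60.3 FPKM in K562. The sources used here do not give strand use in the counting, so reads of the overlap cannot be told apart.

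**Figure D4:**
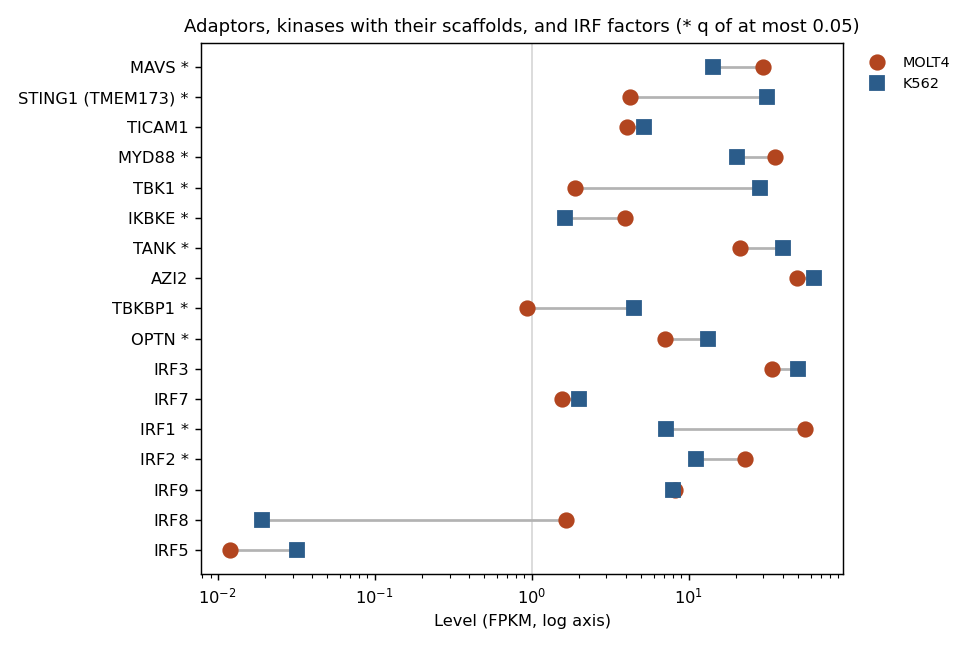
Levels of adaptors, of TBK1 with its relative and scaffolds, and of IRF factors in MOLT4 (circles) and K562 (squares), in FPKM on a log axis, with a star for a q of at most 0.05 in the authors' deposited table. STING1, TBK1, TANK and TBKBP1 lie to the right in K562, while MAVS, MYD88, IKBKE and IRF1 lie to the right in MOLT4.

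IRF1 and IRF2 were called where IRF3 was not, a difference between factors that was not tested. IRF1 was at 55.5 FPKM in MOLT4 against 7.18 FPKM in K562, 7.73-fold higher in MOLT4 (q = 0.00156 in the authors' deposited table), and IRF2 was 2.07-fold higher in MOLT4. IRF7, which drives the interferon alpha genes, was at 1.57 FPKM in MOLT4 against 2.02 FPKM in K562 and was not called. IRF5 was at 0.0121 FPKM in MOLT4 against 0.0320 FPKM in K562, and IRF8 was at 1.66 FPKM in MOLT4 against 0.0193 FPKM in K562 without a call (q = 0.332 in the authors' deposited table). Of the 14 IRF and NF-kB genes 11 were tested, 3 were called toward MOLT4 and 2 toward K562, with a median log2 ratio of 0.03. The called share, 45.5%, is near the 42.2% of all tested genes. The NF-kB genes were split, with REL 2.49-fold higher in MOLT4, and NFKB1 and NFKB2 6.06-fold and 2.36-fold higher in K562, all 3 called in the authors' deposited table.

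Most end products of these pathways were under 1 FPKM in both lines. Of the 10 interferon and chemokine genes on the list, 3 were tested and 8 were under 1 FPKM in both lines. IFNB1, the main target of IRF3, was at 0.0503 FPKM in MOLT4 with a listed 0 in K562. IL6 was the 1 gene called, listed at 0 in MOLT4 and at 3.90 FPKM in K562 (q = 0.000203 in the authors' deposited table). The other tested genes, CCL5 and TNF, were not called (q = 0.153 and 0.258 in the authors' deposited table). CCL5 was at 0.0501 FPKM in MOLT4 against 1.28 FPKM in K562, and TNF at 0.614 FPKM in MOLT4 against 0.0192 FPKM in K562. The median log2 ratio of the 3 tested genes was -1.12, and their called share was 33.3%, beside 42.2% of all tested genes.

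Most called RNA-binding antiviral effectors were, like the helicase sensors, higher in MOLT4. Of 16 such genes 15 were tested, 9 were called toward MOLT4 and 1 toward K562 in the authors' deposited table, with a median log2 ratio of 1.25. OAS2, which makes short oligoadenylates when it binds double-stranded RNA, was at 7.94 FPKM in MOLT4 against 0.0283 FPKM in K562. IFIT5, a binder of viral RNA ends, was at 4.54 FPKM in MOLT4 against 0.0173 FPKM in K562, and the helicase gene DDX60 at 8.57 FPKM in MOLT4 against 0.0821 FPKM in K562.

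Of 11 negative regulators, all tested, 6 were called toward MOLT4 and 1 toward K562 in the authors' deposited table. Their median log2 ratio was 0.81. The called share was 63.6%, beside 42.2% of all tested genes, 18.8% toward MOLT4 and 23.4% toward K562. USP18, which removes ISG15 from proteins, was at 21.6 FPKM in MOLT4 against 1.52 FPKM in K562. NLRC5, which is also the activator of class I antigen presentation genes, was at 3.47 FPKM in MOLT4 against 0.0966 FPKM in K562, and the phosphatase gene PPM1A was 2.54-fold higher in MOLT4. The autophagy gene ATG5 was the 1 called higher in K562, at 16.5 FPKM in MOLT4 against 55.6 FPKM in K562.

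The inflammasome genes that would act with AIM2 were divided between the lines. Of 9 genes 5 were tested, 2 were called toward MOLT4 and 2 toward K562, with a median log2 ratio of -2.49. The called share of these few tested genes was 80%, beside 42.2% of all tested genes. CASP1, the protease of the inflammasome, was at 10.2 FPKM in MOLT4 with a listed 0 in K562. GSDMD, the pore former it cleaves, was at 32.9 FPKM in MOLT4 against 1.49 FPKM in K562. PYCARD, the adaptor between AIM2 and caspase, was listed at 0 in MOLT4 and at 4.63 FPKM in K562 and missed the threshold (q = 0.0957 in the authors' deposited table). IL18, a substrate of the protease, was listed at 0 in MOLT4 and at 8.79 FPKM in K562, and the sensor gene NLRP1 was at 0.155 FPKM in MOLT4 against 10.8 FPKM in K562, both called in the authors' deposited table.

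**Figure D5:**
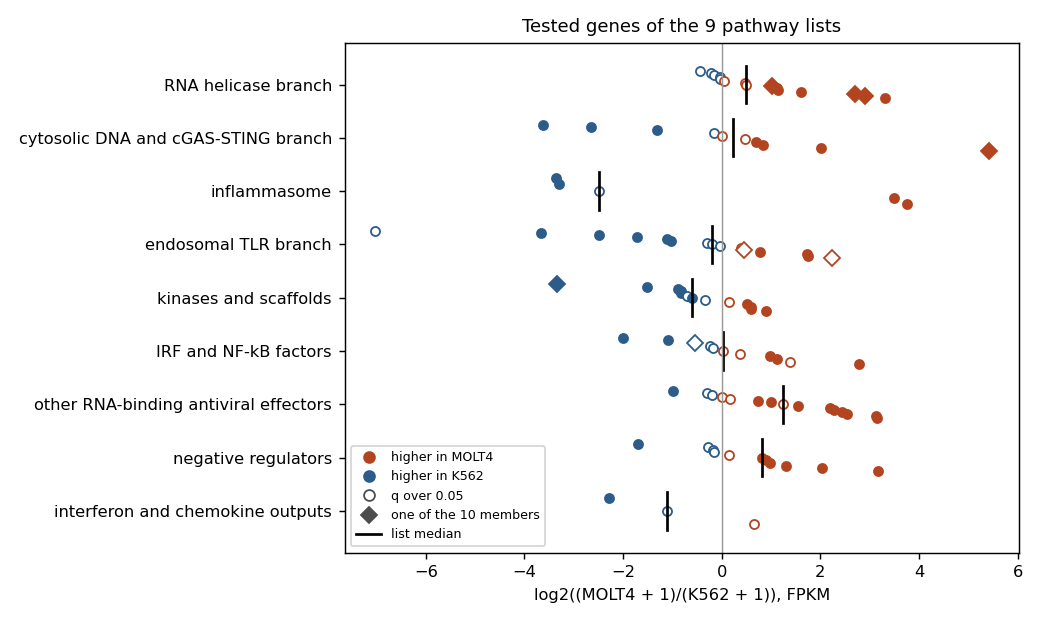
Log2((MOLT4 + 1)/(K562 + 1)) of each tested gene in the 9 pathway lists, filled where q was at most 0.05 in the authors' deposited table, with diamonds for the members of the set and a bar for the list median. The called genes of the RNA helicase list all lie to the right of 0, and TBK1 lies furthest left among the kinases and scaffolds.

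Over all lists there were 113 genes other than the 10 members, of which 90 were tested. Of these, 34 were called toward MOLT4 and 20 toward K562, or 60% in either direction, beside 42.2% of all tested genes. Their median log2 ratio was 0.09, beside -0.06 over all tested genes.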

How the data were processed

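RNA from MOLT4 and K562 was sequenced. The submitters' processing notes name Cuffdiff, Cufflinks 2.2.2, TopHat2 2.1.1, CASAVA 1.8.2 and the builds GRCh38.p13 and hg38. The authors deposited a single FPKM value for each gene in each line. The sources used here do not say if it pools the stated replicates. The authors' deposited table also holds a Cuffdiff p-value and q-value per gene. Depth is unknown, so no interval is given. Should each value come from a single library, the q-values describe those libraries rather than the lines.

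Of 60586 genes 18870 were tested by the authors, 41638 were not tested, 75 had too many fragments and 3 failed. A gene was called at a deposited q of at most 0.05. The smallest p is 5e-05, shared by 4647 genes. Ratios were taken as MOLT4 over K562, on the log2 scale with a pseudocount of 1 FPKM, which understates changes of low genes, and plain folds only where neither value was 0. A 0 in the table need not be a measurement. The ratio and call functions were tested on simulated data. Starts are the authors' locus starts counted from 1, and a locus can hold several genes. Overlaps, strands and gene types are from GENCODE release 29, to which 96.5% of identifiers matched. STING1 and TASL were matched by their older symbols.

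The members and the 9 pathway lists were chosen with earlier results of these data known. Named were the members, fixed partner genes and, per list, up to 3 called genes in each direction by plain fold, with genes listed at 0 in a line taken first. For IFI16 and TBK1 the 3 nearest tested genes by Euclidean distance were named. Genes named beyond this rule (TRIM25, TRAF6, TOMM70, CTSL, CCL5, TNF, BCL2L12, AC097637.1, markers) were chosen after their values were seen. The genes that flank members were also named beyond it, after the members' values were seen, and not all of them are reported. Some genes that the rule names are not reported here. Alternatives were other pseudocounts, 3 scalings, other thresholds and filters on low values. Python 3.11.15, pandas 2.3.3, numpy 2.4.6 and matplotlib 3.10.9 were used.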

Additional observations from a re-analysis of the deposited data

How the results depend on the processing

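With 1 value per line no replicate could be left out. No paired analysis was possible because the table holds no values per replicate. No direction changed for any of the 10 members under the pseudocounts of 0.1 and 0.01 FPKM or the 3 scalings. Scaling to equal sums shifts plain log2 ratios of all genes by 0.11 and upper quartile scaling by 0.12. The pseudocount of 1 was added after scaling, so with equal sums (TPM) it was 1 TPM, which is less than 1 FPKM in both lines. The log2 ratios with a pseudocount therefore did not all shift alike. With equal sums the log2 ratio was 3.38 for IFIH1, 2.78 for TLR3, -3.42 for TBK1 and -0.33 for AIM2. The median over the tested members was then 1.96. Smaller pseudocounts moved the ratios of low genes: the median over the tested members was 3.02 at 0.1 and 4.47 at 0.01, that of the inflammasome list -5.43 and -6.04, that of the RNA-binding effectors 1.95 and 2.01, and that of the interferon and chemokine outputs -3.20 and -4.42. Where each line had to reach 1 FPKM, 3 members and 4430 of all tested genes were called, which leaves out IFIH1 and DDX58 by construction, and the list counts were 2 for RNA helicases, 1 for the inflammasome, 4 for the endosomal receptors, 5 for RNA-binding effectors and 0 for the outputs. Requiring a 2-fold difference left 3 kinases and scaffolds called, TBK1 among them, 2 genes of the cytosolic DNA list called toward MOLT4 in place of 4, and all 5 called members. At a minimum of 0.1 FPKM in place of 1, 7 members reached it in K562. At a q of at most 0.01, 2 kinases and scaffolds were called toward MOLT4 in place of 4, and at an unadjusted p of at most 0.05, 1 RNA helicase gene was called toward K562 in place of 0. The other counts of calls stayed within 1.5 times under these 2 thresholds. TLR3, TLR7, TLR9 and AIM2 have a value under 0.1 FPKM in a line, and with depth unknown no error can be set on these.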

Other observations

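Genes near TBK1 on chromosome 12 were also called higher in K562. They were looked up after the members' values were seen. XPOT, a transfer RNA exporter, was at 62.4 FPKM in MOLT4 against 132 FPKM in K562, C12orf56 at 0.0149 FPKM in MOLT4 against 0.934 FPKM in K562, and RASSF3 at 10.2 FPKM in MOLT4 against 17.8 FPKM in K562. All 3 had a q of at most 0.05 in the authors' deposited table, where 23.4% of tested genes were called higher in K562. TBK1 itself, at 15.0-fold, differed by a larger ratio than XPOT and RASSF3. Its ratio was smaller than that of C12orf56, which was under 1 FPKM in both lines.

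Around the other genes the picture varied. On chromosome 4 FAM149A, next to TLR3, was at 6.44 FPKM in MOLT4 against 0.00528 FPKM in K562 and, like TLR3, missed the threshold (q = 0.326 in the authors' deposited table), while CYP4V2 beyond it was at 6.53 FPKM in MOLT4 against 4.66 FPKM in K562 and was not called. On the other side of TLR3, SORBS2 was called higher in MOLT4, at 0.333 FPKM in MOLT4 against 0.0347 FPKM in K562. IFI16 lies between MNDA, PYHIN1, AIM2 and CADM3, which were all listed at 0 in MOLT4. ACO1 and TOPORS, beside DDX58, were at 17.7 and 13.1 FPKM in MOLT4 and at 16.0 and 9.64 FPKM in K562 and were not called. Near IFIH1, GCA was called higher in MOLT4, at 0.869 FPKM in MOLT4 against 0.0858 FPKM in K562, while GCG, FAP and KCNH7 were not tested. Near IRF3, RRAS was called higher in K562, at 0.476 FPKM in MOLT4 against 6.27 FPKM in K562. SCAF1, PRMT1 and ADM5, also near IRF3, were not called. Beside MAVS, CDC25B was at 82.6 FPKM in MOLT4 against 21.6 FPKM in K562 and AP5S1 at 13.01 FPKM in MOLT4 against 3.99 FPKM in K562, both called in the authors' deposited table. On the other side of MAVS, PANK2 was at 29.3 FPKM in MOLT4 against 27.0 FPKM in K562 and was not called, and RNF24 was called higher in K562, at 16.0 FPKM in MOLT4 against 29.01 FPKM in K562 (q = 0.0112 in the authors' deposited table).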
